A study of Sus scrofa with 4 samples.

Results

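The step from neural stem-like cells to pluripotent cells was described in porcine cultures by setting 2 iPSC (induced pluripotent stem cell) clones against 1 library of iNSLCs (induced neural stem cell-like cells). These are 3 of the 4 libraries sequenced. The remaining library, of the parental fibroblasts, is quoted for its levels. All cultures descended from ear skin fibroblasts of a single post-neonatal pig, N01F. The fibroblasts (passage 1) were not transfected. The iNSLCs (passage 1) were dome-shaped colonies that appeared after transfection with the EP-B set of episomal vectors (OCT4, SOX2, KLF4, L-MYC, LIN28, EGFP, KLF2, NANOG, GLIS1, KDM4D and 1 further insert) in NSM, a medium used earlier for naive-state cells. The study says that NSM was supplemented with chemical inhibitors, but the text used here does not name them or give the rest of its content. The iPSC clones (passage 3) carried the same transfection. They were picked as single colonies after such cells had been moved to ESM, a serum replacement medium with basic FGF, supplemented with activin A, TGF-β1 and IWP2, an inhibitor of WNT secretion. Medium, passage, picking of colonies and cell state therefore changed together, and their parts cannot be told apart. Loss of the vectors was checked only at a later passage. Reads from vector genes may therefore be counted at their pig counterparts in the iNSLC and iPSC libraries, and their part in those levels was not tested.

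Neural stem cells divide under Notch signalling and release neurons through proneural basic helix-loop-helix factors, and their place along the neural tube is written in ZIC, PAX, IRX and HOX genes. Pluripotent cells of the primed kind resemble the epiblast shortly before gastrulation. They depend on FGF and on activin or NODAL, which drive POU5F1 and NANOG and, at higher activity, the genes of mesoderm and endoderm. WNT proteins need the acyltransferase Porcupine for their release, which is the step that IWP2 blocks.

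The iNSLC library held 25784594 counts, iPSC clone 1 21640374 and iPSC clone 2 41296933. Levels are CPM, the count of a gene relative to the total of its library, scaled by TMM, a factor that evens out library composition. A gene with 0 counts may have lain at up to 0.105 CPM in the iNSLC library and up to 0.127 and 0.0656 CPM in clones 1 and 2, the scaled level of 3 counts (counting error only). Folds are ratios of the mean level of the clones to the iNSLC level, with libraries under 3 counts raised to 3. Changes were called by the edgeR quasi-likelihood test at a Benjamini-Hochberg adjusted p under 0.05 over 15739 genes. The clones gave its only residual degree of freedom, and the lone iNSLC library was assumed to vary like them. The p-values thus measure the spread between 2 clones of 1 animal. An exact permutation test of 2 samples against 1 cannot go below p = 0.333, so no single value was tested that way.

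The labels were first set against defining markers. Of the 8 markers taken for the iPSC label, POU5F1, NANOG, SOX2, TDGF1, UTF1 and EPCAM were called higher in the clones. These are RNA levels. In the study, RT-PCR with primers for pig sequences found OCT4 (POU5F1), NANOG and SOX2 RNA in the porcine iPSCs. Its immunostaining of these cells was strong for OCT4 and SOX2 and negative for NANOG and some other pluripotency markers. LIN28A (202 against 285 and 349 CPM) and ZFP42 (11.9 against 29.8 and 88.8 CPM) did not pass the test. For the iNSLC label 10 neural genes were taken, all but NES from the study's own text. Of these, SOX2, NES, MSI1 and DCX stood in the iNSLC library at 134, 384, 151 and 54.6 CPM. Of the other factors, SOX1, NEUROG1, NEUROG2 and NEUROD1 lay between 0.977 and 6.04 CPM there, and PAX6, at 14.6 CPM, was higher in the fibroblasts (21.5 CPM). Neural progenitor genes were therefore present in the iNSLCs together with genes of other cells. The 44 genes of the fibroblast and matrix list found by name, 43 of them measured, summed to 69400 CPM in the iNSLC library. Their sum was 210000 CPM in the fibroblast library and 4460 and 4840 CPM in the clones. In bulk RNA, fewer cells of a type and less RNA per cell cannot be told apart. The 12 blood and immune markers found by name summed to 27.1 CPM in fibroblasts, 13.1 CPM in iNSLCs and 17.5 and 19.5 CPM in the clones. Of the 10 measured, 1, LAPTM5, was called higher (0.454 to 3.0 and 5.07 CPM). Of 7 endothelial markers 2 fell and 1 rose, with a median log2 ratio of 1.19. PECAM1 fell from 21.5 to 2.03 and 5.2 CPM, against the direction of that median. TIE1 also fell and TEK rose, both calls being lost under DESeq2. Of 5 keratinocyte markers 3 fell, led by KRT1 (41 CPM, and no count in either clone).

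Of the 15739 genes tested, 4429 (28.1%) differed between the iPSC clones and the iNSLCs. The clones were higher in 2215 genes (14.1%) and lower in 2214 (14.1%). The median log2 ratio over all tested genes was 0, and the median fold of the called genes was 2.42 upward and 2.80 downward. Counted by fold without a test, 282 genes stood 4-fold or more above the iNSLC level in each clone and 345 stood 4-fold or more below it, where the higher side had to reach 10 CPM throughout. The scatter of gene levels shows the calls.

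**Figure D1:**
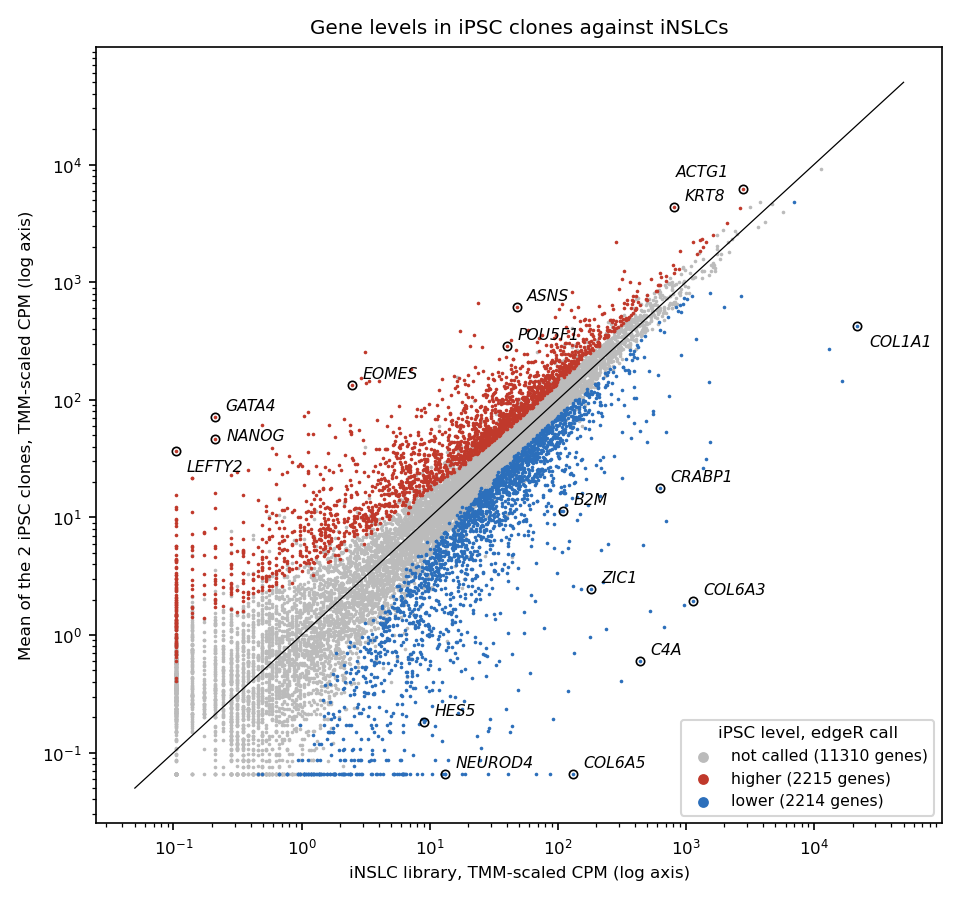
Level of each of the 15739 tested genes in the iNSLC library (horizontal) and as the mean of the 2 iPSC clones (vertical), in TMM-scaled CPM on log axes, coloured by the edgeR call. Genes under the level of 3 counts are drawn at it, circled genes are described in the text, and COL6A3, C4A and ZIC1 lie far below the diagonal while LEFTY2, NANOG and GATA4 lie far above it.

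Among genes with a symbol and at least 10 CPM in each library of the higher side, LEFTY2, GATA4 and NANOG rose most. LEFTY2, a secreted inhibitor of NODAL (ENSSSCG00000032299, chromosome 10, 13849052 to 13853438 on Sscrofa11.1), had no count in the iNSLC library and stood at 42.3 and 31.5 CPM in the clones, at least 352-fold higher. GATA4 (ENSSSCG00000022383, chromosome 14, 14858159 to 14937207), a factor of endoderm and heart, rose from 0.209 to 59.7 and 83.5 CPM. NANOG (ENSSSCG00000040403, chromosome 5, 62932575 to 62939035) rose from 0.209 to 52.4 and 40.9 CPM. Each of these genes was close to absent before the step and present in each clone after it. The log2 changes were 8.40 for GATA4 and 7.77 for NANOG (edgeR adjusted p = 0.00182 and 0.00173). Their iNSLC levels rested on few counts, so the size of these changes is imprecise. The same rule named the ETS factor ETV4 (124-fold), the endoderm factors HHEX (82.7-fold) and SOX17 (76.4-fold), and the YAP target ANKRD1 (80.6-fold). It also named the slow skeletal troponin TNNT1 (70.1-fold), the chloride channel protein CLIC6 (69.8-fold), the embryonic stem cell Ras protein ERAS (65.5-fold), the protease KLK5 (78.2-fold), the endothelial proteoglycan ESM1 (65.4-fold) and TMEM132D (56.9-fold). SYNDIG1L had no iNSLC count (at least 112-fold higher), and TFEC, a relative of MITF, had a single one, for a pooled ratio of 343-fold (95% interval 61.4 to 13561).

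Among the falls, COL6A5, a collagen VI chain (ENSSSCG00000011186, chromosome 13, 2029943 to 2173774), stood at 131 CPM in the iNSLCs and had no count in either clone nor in the fibroblasts, a fall of at least 1358-fold. ITGBL1, an integrin-like secreted protein, fell 775-fold, from 314 to 0.591 and 0.219 CPM. Complement C4A (ENSSSCG00000001427, chromosome 7, 24068070 to 24086128) fell 735-fold, COL6A3 578-fold, the proteoglycan DCN (decorin) 572-fold and the matricellular THBS2 529.8-fold. The proteoglycans ASPN and PRELP, the matrix protein ECM2, C1S and FAP (fibroblast activation protein) fell between 241-fold for FAP and 473-fold for ASPN, and KRT1 fell at least 427-fold. For genes with counts left but no more than 3 in either clone, pooled ratios were used, which were 2996-fold (95% interval 829 to 24755) for C7, 2342-fold (95% interval 647 to 19353) for OMD (osteomodulin) and 992-fold (95% interval 274 to 8208) for ADAMDEC1. All of these but COL6A5, C7, C4A and KRT1 were also above 4 CPM in the fibroblasts. In absolute terms COL1A1, COL3A1 and COL1A2 lost most, and the largest gains among genes with a symbol were those of the simple epithelial keratins KRT8 (814 to 4408 and 4328 CPM) and KRT18 (283 to 2328 and 2092 CPM) and the cytoskeletal actins ACTG1 (2773 to 5964 and 6408 CPM) and ACTB (2635 to 4257 and 4332 CPM).

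Named genes were then read in 43 lists, of which 18 appear in the plot of list members. A list is described by the number of its measured members called in each direction, beside 14.1% of all tested genes in each direction, and by its median log2 ratio, beside 0 for all tested genes. Mesendoderm, core pluripotency, FGF and ERK, epithelial and ATF4 lists had most members higher in the clones. Neuronal, interferon, antigen presentation, complement and matrix lists had most members lower.

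**Figure D2:**
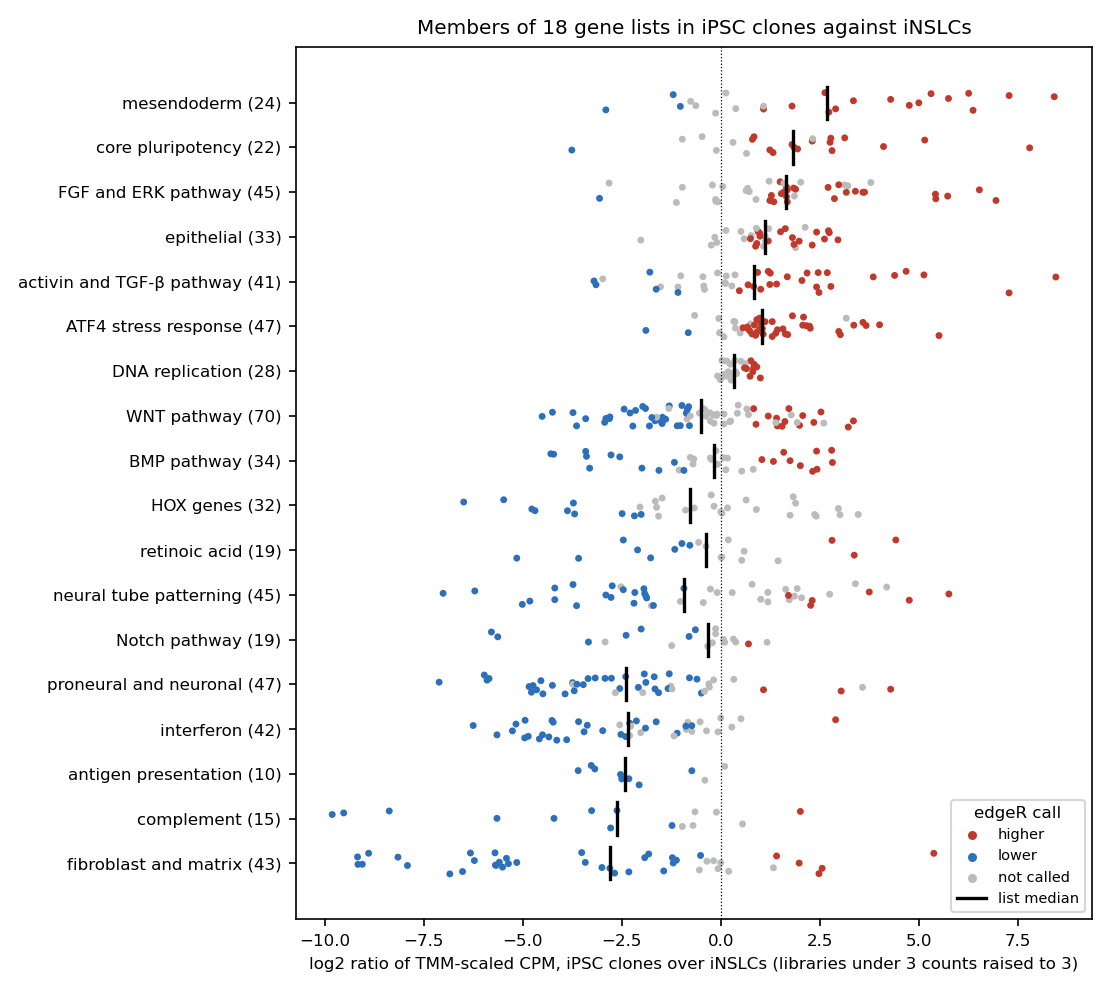
Log2 ratio of iPSC clones over iNSLCs for each measured member (points) of 18 gene lists, with the number measured in brackets, the edgeR call as colour and the list median as a black bar. Medians run from -2.80 in the fibroblast and matrix list to 2.68 in the mesendoderm list.

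Of 10 core pluripotency transcription factors, 9 rose. The list as a whole had 15 of 22 members higher and 1 lower (median 1.82). Beyond NANOG, the steepest rises were those of VRTN (35.6-fold, from 4.05 to 134 and 154 CPM) and PRDM14, a factor of pluripotent and germ cells (17.2-fold, from 3.87 to 68.1 and 65.3 CPM). POU5F1 (ENSSSCG00000001393, chromosome 7, 23564908 to 23570600) rose 7.03-fold, from 40.5 to 295 and 275 CPM, UTF1 from 3.31 to 27.9 and 17 CPM and FOXD3 from 1.19 to 10.2 and 10.6 CPM. SOX2, which the iNSLCs already held, rose 1.74-fold, from 134 to 211 and 254 CPM. Reads at POU5F1 were thus already present in the iNSLCs, where the part of vector reads was not tested, whereas NANOG, PRDM14, VRTN, UTF1 and FOXD3 stood at or under 4.05 CPM there. TERT, the catalytic subunit of telomerase, rose from 3.11 to 10.3 and 11.3 CPM, and the de novo methyltransferase DNMT3B from 328 to 1303 and 1209 CPM. DPPA5 was the member that fell, from 3.35 to 0.253 and 0.240 CPM.

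Naive-state genes did not share this rise, with 3 of 16 higher and 4 lower (median -0.46). KLF5 rose 4.13-fold and GDF3 from 0.628 to 12 and 6.16 CPM, while the orphan receptor ESRRB fell from 30 to 9.75 and 4.06 CPM and STAT3, the transducer of LIF signals, from 105 to 66.3 and 61.4 CPM. KLF17 and TFCP2L1 were at or under 1 CPM in all 3 libraries. KLF4 stood at 54.4 CPM in iNSLCs and 27.1 and 13.7 CPM in the clones and did not pass the test. Of 9 measured counterparts of vector genes, NANOG, POU5F1 and SOX2 rose and GLIS1 (21.9 to 0.591 and 2.49 CPM) and KLF2 (8.34 to 3.29 and 3.28 CPM) fell, the call of KLF2 being lost under DESeq2. MYCL (23.6 against 25.2 and 18.6 CPM) did not pass the test. Within the MYC family, MYC rose 4.96-fold, from 8.48 to 45.4 and 38.7 CPM, and MYCN 1.98-fold, from 53.6 to 99.1 and 114 CPM, whereas the antagonists MXD4 (3.83-fold) and MXD1 (2.11-fold, not called by DESeq2) fell. MYC had been higher in the fibroblasts, at 90.2 CPM, and MYCN was near absent there (0.0432 CPM).

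In the activin and TGF-β pathway, the ligands themselves changed. NODAL rose from 0.837 to 37 and 21.6 CPM (35-fold), INHBA, the subunit of activin A, from 7.12 to 247 and 117 CPM (25.6-fold) and TGFB1 from 2.44 to 52.5 and 49.9 CPM (21-fold). TGFB2 (113 to 43.7 and 63.7 CPM) and TGFB3 (18.3 to 4.69 and 7.12 CPM) fell. Activin A and TGF-β1 are also the ligands that the iPSC medium supplied. Among receptors and their SMADs, the TGF-β receptors TGFBR2 (9.2-fold) and TGFBR3 (8.87-fold) fell. ACVR1B, a receptor of activin and NODAL, rose from 25.6 to 47.3 and 50.1 CPM. FOXH1, the nuclear partner of SMAD2, rose 3.2-fold, and the NODAL co-receptor TDGF1 6.87-fold, from 1.12 to 8.32 and 7.02 CPM. SMAD2 (79.3 against 84.3 and 85.5 CPM), SMAD3 (89.8 against 89.1 and 81.1 CPM) and SMAD4 (131 against 144 and 142 CPM) did not pass the test. Of 13 inhibitors 10 rose and none fell by edgeR, with 2 lower at an unadjusted p under 0.05 and 1 by DESeq2. The rises were led by LEFTY2, CER1 (0.140 to 33.4 and 9.97 CPM), PMEPA1 (5.48-fold) and SMAD7 (5.37-fold). Of 12 target genes 11 rose. Among these, LEFTY2, PMEPA1, SMAD7 and SKIL are also counted as inhibitors and NODAL as a ligand, so the counts by role share genes. The target that fell was the cell cycle inhibitor CDKN2B (12.8 to 4.18 and 3.23 CPM).

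Most FGF receptors did not pass the test, while the feedback genes of the pathway rose. FGFR1, the main FGF receptor of pluripotent cells, stood at 208 CPM against 209 and 222 CPM, and FGFR2 and FGFR3 likewise did not pass the test. FGFR4 rose from 5.06 to 18.1 and 13.9 CPM. Of 16 ligands FGF8 (0.140 to 1.86 and 1.6 CPM, not called by DESeq2), FGF10 (5.44 to 15 and 15.8 CPM) and FGF19 (8.17 to 57.3 and 49.5 CPM) rose. FGF9 (3.42 to 0.338 and 0.481 CPM) fell, while FGF2 did not pass the test (10.3 against 18.6 and 14.4 CPM). At an unadjusted edgeR p under 0.05, 10 ligands were higher and 3 lower. Among feedback inhibitors and targets of ERK, 19 of 22 rose (median 1.85), and none fell by edgeR, by DESeq2 or at an unadjusted p under 0.05. ETV4 and ETV5, factors induced by FGF, went from 0.489 to 68.7 and 52.5 CPM and from 2.9 to 138 and 170.0 CPM. DUSP6, the phosphatase that shuts off ERK, rose 42.7-fold and the inhibitor SPRY4 43.2-fold. The immediate early factor EGR1 rose 3.58-fold. FGF was part of the iPSC medium, and the iNSLC medium held chemical inhibitors that are not named. The medium and the state therefore cannot be told apart here.

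The WNT pathway was lower at its targets and at several ligands, with receptors divided. Among 16 targets and feedback genes 11 fell, including AXIN2 (6.99-fold, from 214 to 35.1 and 26.2 CPM), SP5 (7.6-fold) and LEF1 (4.67-fold). TBXT (brachyury), a WNT target that is also a mesoderm factor, went against them and rose from 1.12 to 14.1 and 8.7 CPM, as did the repressor TCF7L1 (20.9 to 86 and 90.3 CPM). Of 25 ligands and secretion genes, 11 fell and 4 rose. WNT4 fell from 15 to 0.633 and 0.940 CPM and WNT5A from 53.6 to 21.3 and 17.1 CPM. PORCN, the Porcupine enzyme that IWP2 inhibits, rose 1.77-fold, from 9.56 to 17.8 and 16.1 CPM (edgeR adjusted p = 0.0461), a call lost under DESeq2 and under both other low-count filters. The frizzled receptor FZD10 fell 13.3-fold, from 171 to 11.7 and 14.1 CPM, while FZD5 rose from 34 to 182 and 166 CPM and the stem cell receptor LGR5 3.96-fold. Secreted antagonists split 3 and 3, with SFRP1 rising (107 to 208 and 285 CPM) and SFRP4 falling (35.2 to 1.44 and 1.66 CPM).

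In the BMP pathway 6 of 15 ligands and antagonists rose and 4 fell, and 4 of 19 receptors and targets rose and 7 fell. BMP4 rose 5.36-fold, from 14.4 to 62.9 and 92 CPM, and BMP2 from 16.5 to 116 and 117 CPM. The antagonist CHRDL1 fell from 123 to 4.39 and 8.15 CPM and the ligand GDF10 from 18.1 to 1.01 and 2.62 CPM. BMP7 (13.8 against 20.6 and 28.3 CPM), and the BMP targets ID2 (116 against 57.8 and 77.6 CPM), ID3 (140.3 against 106 and 152 CPM) and ID4 (79.2 against 39.1 and 58.3 CPM), did not pass the test. Among homeobox genes that BMP induces, DLX1 (18.7-fold), DLX5 (10.5-fold) and MSX1 (6.82-fold) fell. The feedback inhibitors BAMBI (22.8 to 61.4 and 75.1 CPM) and SMAD6 (6.0 to 14 and 26.5 CPM) rose. In the Hedgehog list the co-receptors BOC (5.89-fold), CDON (3.86-fold) and GAS1 (4.94-fold) and the factor GLI3 (4.58-fold) fell, whereas GLI1, whose level reports pathway activity, rose from 0.733 to 4.73 and 6.08 CPM. PTCH1, the receptor, did not pass the test (88.3 against 49.6 and 75.7 CPM). Of 13 genes of retinoic acid synthesis, breakdown and binding 7 fell and 2 rose. The binding protein CRABP1 fell 35.5-fold, from 627 to 24.5 and 10.8 CPM, and the degrading enzyme CYP26B1 from 24.5 to 3.17 and 0.918 CPM, while its relative CYP26A1 rose 10.3-fold, from 15.5 to 158 and 163 CPM. Of 6 receptors RARB, itself a retinoic acid target, fell (18.5 to 7.26 and 9.24 CPM) and RXRG rose (1.67 to 13 and 10.5 CPM).

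**Figure D3:**
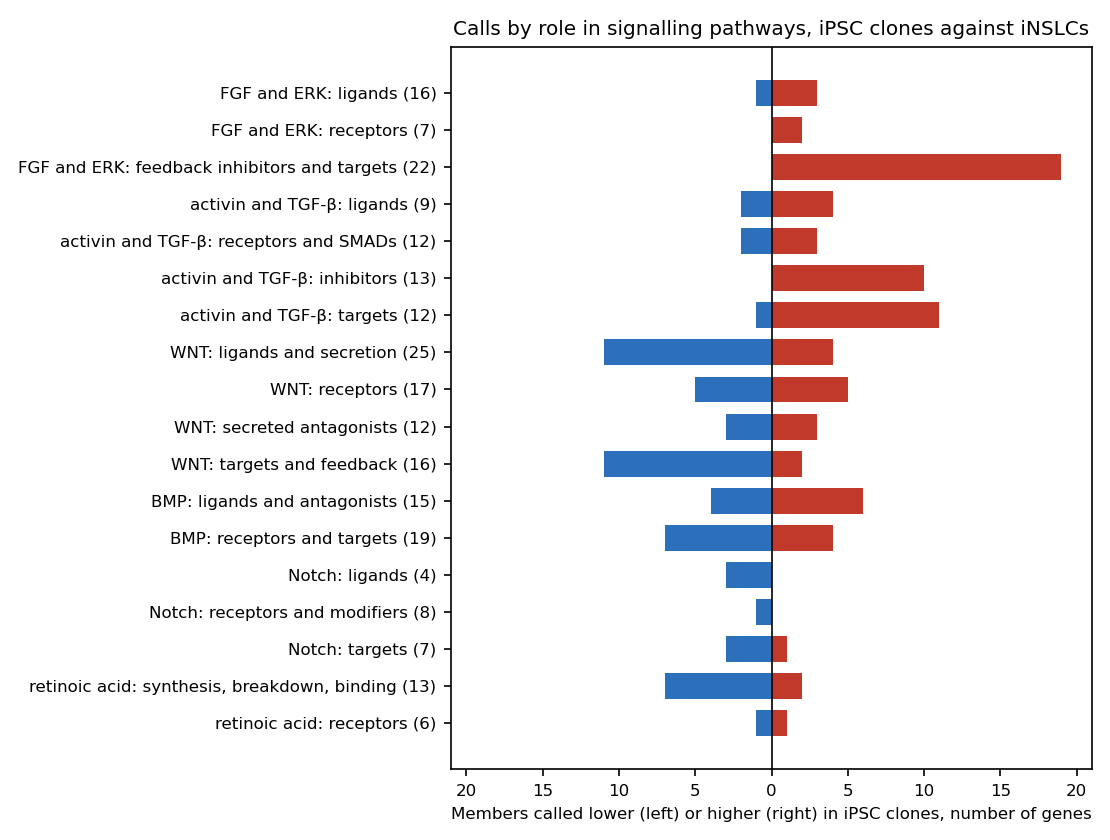
Number of measured members called lower (left) and higher (right) in the iPSC clones than in the iNSLCs, by role in 6 signalling pathways, with the number measured in brackets. The calls of ERK feedback genes (19 of 22) and of activin and TGF-β targets (11 of 12) lie to the right and those of WNT targets (11 of 16) mostly to the left. Some activin and TGF-β genes are counted under more than a single role.

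The clones also held genes of the cell layers that form at gastrulation. Of 17 mesendoderm transcription factors 11 rose (median 2.90), and none fell by edgeR, by DESeq2 or at an unadjusted p under 0.05. Genes found in the clones but near absent from the iNSLCs passed the main filter and could hardly fall. This weighs on these counts and the median, and on those of other lists with such genes. EOMES (ENSSSCG00000040057, chromosome 13, 14209029 to 14216499), which drives definitive endoderm, rose 53.6-fold, from 2.48 to 157 and 109 CPM. FOXA2 rose from 1.01 to 30.4 and 24.6 CPM, LHX1 from 2.83 to 62.2 and 48.1 CPM, GATA6 from 8.13 to 49.9 and 50.9 CPM and GSC from 1.05 to 10.7 and 4.96 CPM. For MIXL1, at 2 iNSLC counts, the pooled ratio was 53.6-fold (95% interval 14.7 to 445). Apart from FOXA1 and GATA6, the 11 factors that rose stood at or under 2.83 CPM in the iNSLCs. The surface receptors moved less uniformly, since KDR, the VEGF receptor of early mesoderm, rose 6.63-fold, and CXCR4, a marker of definitive endoderm, fell from 42.4 to 21.7 and 20.2 CPM. AFP, of yolk sac and fetal liver, had no iNSLC count and 2.2 and 4.52 CPM in the clones. TBX6 (3.52 against 3.63 and 4.06 CPM) and MESP1 (1.26 against 0.591 and 1.03 CPM), of later mesoderm, did not pass the test.

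Sarcomere and cartilage genes rose in a similar manner. Of 9 muscle markers 5 rose and MYH3 fell, a fall that DESeq2 did not call. Skeletal actin ACTA1 rose from 0.628 to 32 and 37.6 CPM, cardiac actin ACTC1 from 11.9 to 35.7 and 50.7 CPM, troponin TNNC1 from 1.81 to 33 and 63.8 CPM and the atrial myosin MYH6 from 5.13 to 20.3 and 51.8 CPM. Clone 2 was above clone 1 in each of these. The myogenic factor MYOG was under 1 CPM in all 3 libraries, and the cardiac factor NKX2-5 had no iNSLC count and 2.36 and 6.08 CPM in the clones. Of 8 chondrocyte markers 5 rose, among them HAPLN1 (5.28-fold), ACAN (aggrecan, 6.92-fold), COL9A1 (3.97-fold) and SOX9 (1.91-fold), while COL2A1 did not pass the test (239 against 218 and 344 CPM). For trophoblast, 3 of 11 markers rose and 5 fell. Those that rose were EOMES, also counted under mesendoderm, HAND1 and TEAD4 (log2 ratios 5.75, 2.80 and 2.19). The clones were lower in TFAP2A (17-fold), CDX2 (7.46-fold), GATA2 (7.13-fold) and GATA3 (3.09-fold). The germ cell markers that rose were PRDM14 and SOX17, which are also pluripotency and endoderm genes, and DDX4 and NANOS3 stayed under 1 CPM.

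Neural genes fell, both the factors that commit a progenitor to the neuronal fate (median -3.74) and the proteins of the neuron (median -1.33). Of 22 proneural factors 16 fell, and LHX1, which mesendoderm also uses, rose. Genes found in the iNSLC library alone passed the main filter and could only fall, which weighs on these counts and medians. With a filter of 1 CPM in 2 libraries, the proneural and neuronal genes called lower went from 33 to 20. NEUROD4 (ENSSSCG00000035778, chromosome 5, 20046937 to 20057397) had 13.3 CPM in the iNSLCs and no count in either clone, at least 138-fold lower. With no more than 3 counts left in either clone, the pooled ratio was 132-fold (95% interval 44.5 to 649) for NEUROG2. INSM1, a zinc finger factor of newborn neurons, fell 26.7-fold, and EBF2 fell from 22.5 to 0.422 and 1.51 CPM. NEUROD1, with 0.977 CPM, and SOX1, with 2.16 CPM, also fell but lost the call under DESeq2. In the fibroblasts NEUROD4, NEUROG1, SOX1 and INSM1 had no count. Among 25 neuronal proteins 17 fell, including CNTN2 (57.6-fold), STMN2 (3.82-fold, from 395 to 99.9 and 107 CPM) and the RNA-binding ELAVL3 (3.7-fold) and ELAVL4 (3.21-fold). DCX, the migrating neuron's doublecortin, fell from 54.6 to 1.44 and 1.68 CPM. TUBB3, the neuronal tubulin, did not pass the test (147 against 113 and 108 CPM), and the adhesion protein L1CAM rose, from 19.9 to 145 and 181 CPM.

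Several genes of the neural stem cell itself were not called. NES (384 against 461 and 505 CPM), CDH2 (373 against 282 and 381 CPM), SLC1A3 (18.9 against 24.1 and 14.9 CPM) and HES1 (27.3 against 40.3 and 30.8 CPM) did not pass the test. MSI1 fell 1.66-fold, and the radial glia genes FABP7 (4.43-fold), PTPRZ1 (5.02-fold) and PROM1 (2.61-fold) fell as well. In all, 10 of 22 such genes fell and 1 rose. The list of 10 neural genes of the study's text differed from the label genes in holding ZNF521 in place of NES. Of this list 8 fell, SOX2 rose and PAX6 (14.6 against 2.32 and 6.71 CPM) was not called, although DESeq2 called its fall. With a filter of 1 CPM in 2 libraries, 3 of the list were called lower. The study named these genes for marmoset iNSLCs made by the same method, so their direction is not independent evidence. In the Notch pathway, the ligand DLL1 fell 10.1-fold, from 36.8 to 3.42 and 3.87 CPM, and JAG1 from 176 to 103 and 123 CPM. HES5, the Notch target of neural progenitors, fell 49.6-fold, HES6 5.26-fold and HES4 4.02-fold. Of the receptors NOTCH3 fell (90.1 to 54.8 and 48.6 CPM) and NOTCH2 did not pass the test (213 against 183 and 184 CPM). NOTCH1 and its target NRARP had no count in any library and could not be measured.

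Patterning factors are given by region of the neural tube. Of 13 forebrain factors 4 rose and 1 fell, of 14 midbrain, hindbrain and cord factors 1 rose and 8 fell, and of 18 dorsal and ventral factors 1 rose and 11 fell. ZIC1 (ENSSSCG00000011692, chromosome 13, 87745751 to 87752919) and ZIC4, its neighbour on that chromosome, are factors of the dorsal neural tube and cerebellum. ZIC1 fell 74.1-fold, from 182 to 2.83 and 2.08 CPM, and ZIC4 129-fold, from 60.9 to 0.549 and 0.393 CPM. LMX1B, of the roof plate and midbrain, fell 28.2-fold, and PAX3, of the dorsal tube and crest, 13.3-fold. The ventral factor NKX6-1 fell from 27.7 to 5.45 and 4.63 CPM. OTX2, which marks both epiblast and forebrain, rose 4.96-fold, from 21.2 to 92 and 119 CPM, and HESX1 rose from 1.22 to 13.3 and 19.5 CPM. Most HOX genes that fell were of the 3′ part of the clusters, which pattern the hindbrain. HOXD8 and HOXA7, outside that part, fell as well (log2 ratios -2.49 and -2.01). HOXA3 fell 25.7-fold, from 15.2 to 0.633 and 0.546 CPM, and HOXB2 13.2-fold, from 17.4 to 1.01 and 1.62 CPM, and HOXB1 had 8.65 CPM in the iNSLCs with no count in the clones or the fibroblasts. Of 32 HOX genes 10 fell and none rose by edgeR or by DESeq2, with 3 higher at an unadjusted p under 0.05. None of the paralog groups 9 to 13 was called. Of 13 neural crest and Schwann genes 6 fell, among them TFAP2B (59.7-fold), and 4 rose, among them FOXD3 and ETS1 (30.3 to 74.1 and 65.9 CPM). SOX10, the master factor of crest and glia, fell 5.09-fold from 3.73 CPM, a call lost under DESeq2.

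**Figure D4:**
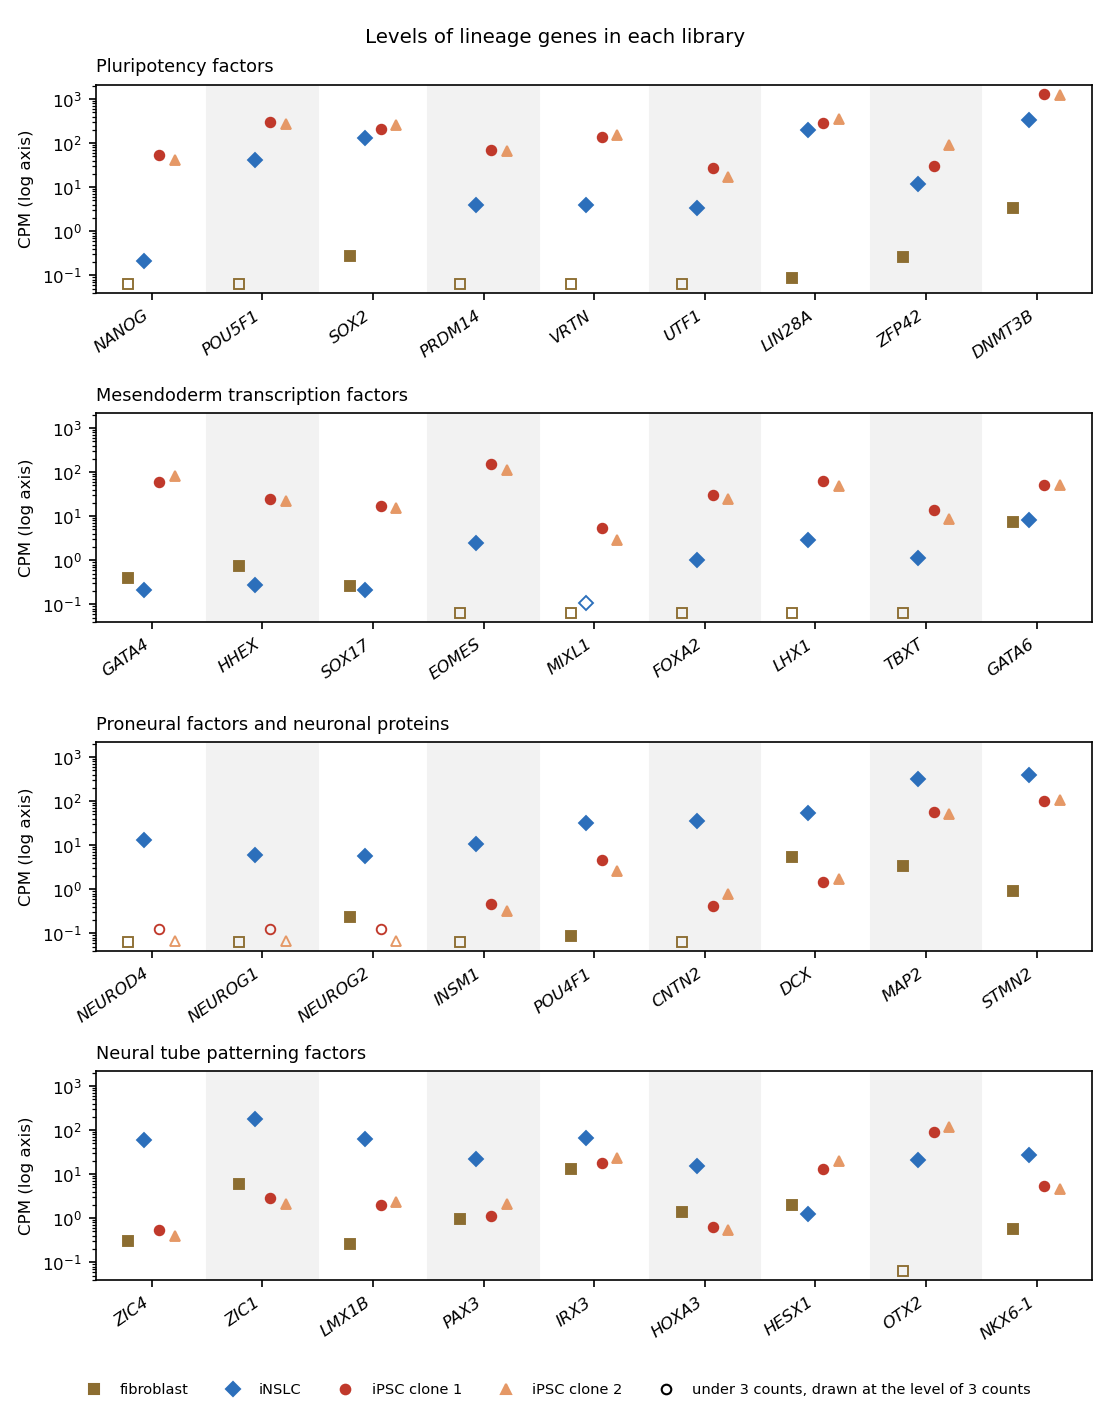
Level of 36 lineage genes in each of the 4 libraries, in TMM-scaled CPM on a log axis, with 1 symbol per library and open symbols for libraries under 3 counts. The clones lie above the iNSLC library for mesendoderm factors and below it for proneural factors, and among patterning factors ZIC4, ZIC1 and LMX1B fell while HESX1 and OTX2 rose.

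The clones were more epithelial in their junctions. Of 33 epithelial genes 18 rose and none fell by edgeR or by DESeq2, with 1 lower at an unadjusted p under 0.05. CDH1 (E-cadherin), already at 378 CPM in the iNSLCs, rose to 801 and 616 CPM. The tight junction genes OCLN (6.69-fold), CLDN3 (6.58-fold) and CLDN6 (3.09-fold) rose, as did EPCAM (3.6-fold) and the splicing regulator ESRP1 (1.92-fold). KRT8 and KRT18 rose 5.36-fold and 7.8-fold. The epithelial factor GRHL2 differed between the clones, with 41.4 CPM in clone 1 and 5.09 CPM in clone 2, and was not called. Of 14 mesenchymal genes 6 fell, led by ZEB1 (7.76-fold) and THY1 (6.39-fold), and FN1 (fibronectin) rose (1126 to 2486 and 1884 CPM). TWIST1 and SNAI2 fell, calls lost when the fibroblast library was left out of the fit. CDH2 did not pass the test, and ZEB2 had no count in any library. Of 31 integrin and basement membrane genes 13 rose and 7 fell, with ITGA3 (4.3-fold) and ITGA5 (3.31-fold) higher and LAMA4 (5.3-fold) lower in the clones.

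Of 43 fibroblast and matrix genes 31 fell and 5 rose (median -2.80). COL1A1 (ENSSSCG00000036135, chromosome 12, 26379000 to 26397284) stood at 64544 CPM in fibroblasts, 21574 CPM in iNSLCs and 447 and 401 CPM in the clones. Its level in the clones was 50.9-fold lower than in iNSLCs (edgeR log2 change -5.67, adjusted p = 0.000459). COL3A1, at 19212 CPM in fibroblasts, fell from 16656 to 131 and 159 CPM. The gelatinase MMP2 fell 10.7-fold and SPARC 3.53-fold. The members that rose were COL15A1 and the contractile genes ACTA2 (27.8 to 97.1 and 122 CPM), TAGLN (not called by DESeq2), MYL9 and CNN1, which smooth muscle uses as well. The proteoglycan BGN did not pass the test (70.3 against 71.6 and 90.2 CPM). From iNSLCs to clones, matrix transcripts thus fell as the complement and interferon genes did, and their part in those falls was not tested. From fibroblasts to iNSLCs the summed levels of the lists went different ways. Matrix went from 210000 to 69400 CPM, complement from 831 to 1820 CPM and interferon from 1500 to 1490 CPM.

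Complement genes fell too, and several had been higher in the iNSLCs than in the fibroblasts. Their summed level was 831 CPM in the fibroblasts, 1820 CPM in the iNSLCs and 218 and 231 CPM in the clones, and 9 of 15 fell. C4A stood at 439 CPM in iNSLCs, against 1.3 CPM in fibroblasts and 0.844 and 0.350 CPM in the clones. C7, of the membrane attack complex, stood at 86.3 CPM, against 0.173 CPM in fibroblasts. C3, the central component, fell 50.1-fold, from 132 to 2.49 and 2.78 CPM, with 49.9 CPM in fibroblasts, and C1S fell 330.0-fold. SERPING1, the inhibitor of C1, fell 6.15-fold and kept 56.3 and 70.5 CPM in the clones. The membrane regulators CD46, CD55 and CD59 did not pass the test, and C6 rose, from 2.9 to 9.92 and 13.5 CPM.

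Interferon-stimulated genes fell in the clones. Of 42 such genes 27 fell and 1 rose (median -2.35). IFI44 (ENSSSCG00000003763, chromosome 6, 134633961 to 134650811) fell 75.9-fold, from 18 to 0.211 and 0.262 CPM, PARP14 38.3-fold and SAMD9 35.9-fold, and IFIT1, which binds foreign RNA, fell from 15 to 0.929 and 1.57 CPM. The fibroblasts held IFI44 at 17.3 CPM and IFIT1 at 46.8 CPM, so the iNSLC level of these was near or below that of the parent cells. GBP1, a guanylate-binding protein, was higher in the iNSLCs than in the other libraries, with 10.8 CPM in fibroblasts, 142 CPM in iNSLCs and 8.7 and 10.5 CPM in the clones. HERC5, the ligase for ISG15, went the other way and rose from 43.4 to 339.9 and 308 CPM. MX1 (26.3 against 13.5 and 18.3 CPM) and the sensor IFIH1 (7.43 against 2.49 and 0.524 CPM) did not pass the test, though DESeq2 called IFIH1 lower. IRF7 had too few counts to be tested. Of 10 class I antigen presentation genes 8 fell, and none rose by edgeR, by DESeq2 or at an unadjusted p under 0.05. B2M, the shared light chain of class I molecules, fell 9.63-fold, from 109 to 12.1 and 10.6 CPM, the peptide transporter TAP1 4.98-fold and the immunoproteasome subunits PSMB8 12.1-fold and PSMB9 9.08-fold. TAP2 and the class I gene SLA-8 did not pass the test.

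Of the metabolic lists, that of the amino acid stress response under ATF4 had the largest share of members that rose. Of 47 members 35 rose and 2 fell (median 1.05). ATF4 itself rose from 177 to 474 and 476 CPM. CHAC1, which breaks down glutathione, rose 45.5-fold, the leucine transporter SLC7A5 16.1-fold, and the cystine transporter SLC7A11 10.3-fold. ASNS (asparagine synthetase, ENSSSCG00000015340, chromosome 9, 77318341 to 77336290) rose 12.8-fold, from 47.9 to 603 and 619 CPM. The serine synthesis enzymes PSAT1 (7.88-fold) and PHGDH (4.46-fold) and the mitochondrial folate enzyme MTHFD2 (4.73-fold) rose too. Of 13 tRNA synthetases 9 rose, while WARS1, which interferon also induces, fell from 202 to 115 and 114 CPM. The fibroblasts held these genes higher still, with 745 CPM of ASNS and 127 CPM of CHAC1, so the low value was that of the iNSLC library. DDIT3, which marks the stress response to unfolded proteins, did not pass the test (2.27 against 4.31 and 2.08 CPM).

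**Figure D5:**
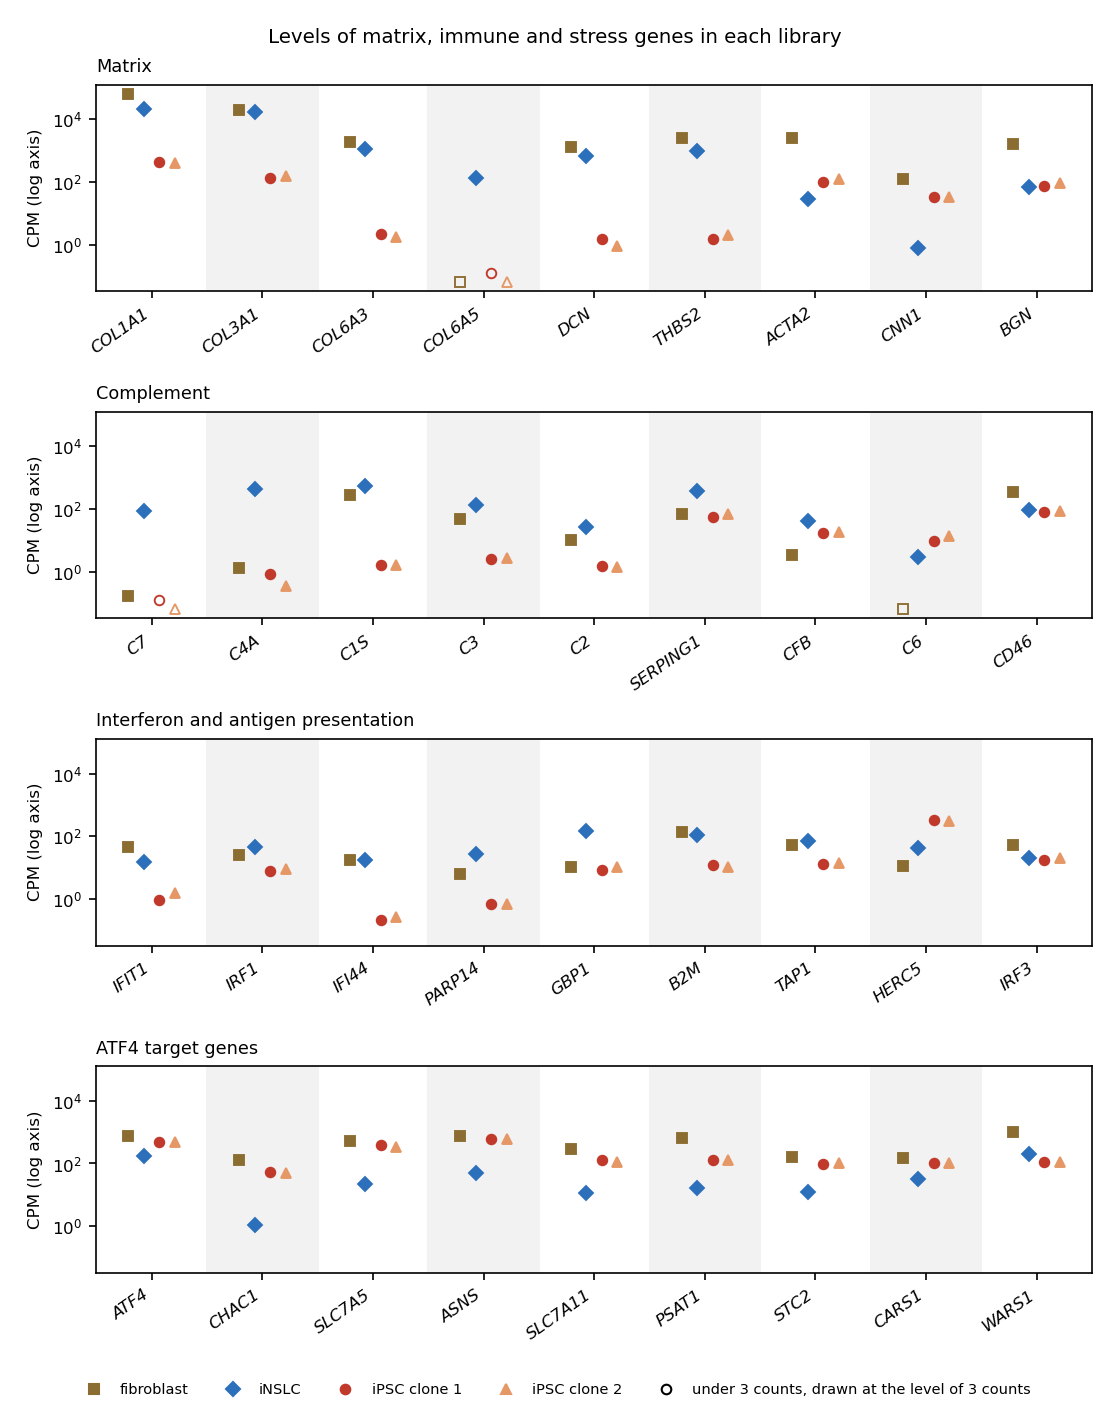
Level of 36 matrix, complement, interferon and antigen presentation, and ATF4 genes in each of the 4 libraries, in TMM-scaled CPM on a log axis, with 1 symbol per library and open symbols for libraries under 3 counts. In the lowest panel the iNSLC library lies below the other 3 for 8 of 9 genes, WARS1 excepted, and in the matrix panel the clones lie far below the iNSLC library for COL1A1, COL3A1, COL6A3, COL6A5, DCN and THBS2.

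Other metabolic lists moved little. Of 29 glycolysis and hypoxia genes 3 rose and 1 fell. EGLN3, a prolyl hydroxylase induced by hypoxia, rose 3.62-fold, and PFKP rose from 7.99 to 18.4 and 30 CPM, while HK2 fell (80 to 56 and 58.8 CPM, not called by DESeq2) and LDHA did not pass the test (495 against 409 and 379 CPM). Of 28 genes of cholesterol and fatty acid synthesis 6 rose and 1 fell, and the squalene synthase FDFT1 rose 1.49-fold. Of 13 mitochondrially encoded subunits ND1, ND2, ND3 and CYTB rose, between 1.49-fold and 1.57-fold. Markers of dividing cells such as MKI67 (304 against 274 and 319 CPM) and TOP2A (674 against 712 and 777 CPM) did not pass the test. Of 28 replication genes 9 rose, led by MCM10 (2.0-fold), and of 23 mitosis genes 9 rose, among them CCNB1 (2.08-fold) and CDK1 (2.06-fold), while CENPF fell by edgeR and was not called by DESeq2. Cell cycle inhibitors fell, in 6 of 8 cases. CDKN2A, known as a barrier to reprogramming, fell 8.01-fold, from 17.3 to 3.0 and 1.33 CPM, CDKN2C 9.14-fold, CDKN1C 3.7-fold and CDKN1A 1.9-fold.

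Among chromatin genes, DNMT3B rose 3.83-fold, whereas DNMT3A (73.5 against 80.8 and 78.1 CPM) and TET1 (77.6 against 83 and 87.2 CPM) did not pass the test, and UHRF1, the partner of DNMT1, fell from 242 to 149 and 176 CPM. Polycomb subunits split 6 and 7. JARID2 (2.75-fold) and PHC1 (2.79-fold), both abundant in pluripotent cells, rose and CBX8 fell 7.24-fold. Of 17 imprinted genes 3 rose and 4 fell. PEG10 fell from 1968 to 497 and 741 CPM and SGCE, its neighbour, from 46.8 to 9.37 and 14.1 CPM. PEG3 fell from 58.6 to 2.53 and 11.7 CPM at an edgeR adjusted p of 0.0498, a call lost under 3 other settings, and DLK1 (30.3 against 39.6 and 64.8 CPM) and MEST (73.4 against 62.6 and 54.5 CPM) were not called.

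The spread between the clones was set against these changes. Of the 4429 called genes 151 differed at least 2-fold between the clones, and so did 1425 of the 15739 tested. The clones alone set the spread used by the test, so genes that differed between them were less readily called. The smaller share among called genes follows from that rule and is no check of the calls. Members of the lists that stood apart were ZFP42 (29.8 and 88.8 CPM), PRRX1 (94.2 and 25.4 CPM), INHBA (247 and 117 CPM) and MYH6 (20.3 and 51.8 CPM). INHBA and MYH6 lay on the same side of the iNSLC level in both clones. For ZFP42 and PRRX1 the distance between the clones was as large as that of the nearer clone from the iNSLCs or larger, and neither was called.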

How the data were processed

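The values used were raw counts of reads per gene, as deposited, for 1 fibroblast, 1 iNSLC and 2 iPSC libraries. The submitters' notes name Trim Galore 0.4.0, STAR 2.5.3a, featureCounts 1.5.2 and the Sscrofa11.1 assembly. They do not say whether strand was used in counting, so a gene and its antisense partner cannot be separated. Near-identical copies (SLA-8, GBP1, IFIT1, C4A, HERC5) may share reads and are uncertain. Groups came from the labels. Of 25880 genes, 19280 had a count. Symbols came by identifier for 14857 genes and by position (at least 80% overlap with a single RefSeq gene) for 1402, POU5F1 and SOX2 among them, and 9621 had none. In 11118 genes named both ways, 95.2% agreed in symbol.

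Totals ranged from 21640374 to 62421521 counts, with 16218 to 17555 genes detected, so weak genes were measured least precisely in clone 1. Counts were scaled by TMM and tested with edgeR 4.0.16 (limma 3.58.1, R 4.3.3; glmQLFit, two-sided, filterByExpr) over all 4 libraries in 3 groups, with 1 residual degree of freedom and a biological coefficient of variation of 0.198. The scripts were tested on simulated data. A fold against a group at 0 counts is a lower bound, with each library raised to 3 counts. Where the lower side had counts but no more than 3 in any library, the ratio is of pooled counts and its 95% interval is an exact conditional binomial one, for counting error alone. The alternatives tried were total-count and RLE scaling, 2 other filters on low counts, DESeq2 1.42.0, the 3 compared libraries alone, a minimum change of 2-fold and each clone left out.

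The comparison, the 43 lists and the tests were chosen with earlier results of these data known. The lists, 978 genes found by name of which 927 were tested, came from textbook knowledge, except the study's neural genes. Genes named were key members of the lists, the 4 called members per list with the largest ratios, the 15 largest ratios and the 10 largest CPM differences in each direction. Other list members named in the text were chosen after their values were seen. A few members of the lists, and 1 vector insert, are not reported here by name. A planned search of promoters for motifs was not run, since no sequences were used here.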

Additional observations from a re-analysis of the deposited data

How the results depend on the processing

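The number of called genes stayed within 1.5 times under 6 of 7 alternatives, from 1947 to 2324 higher and from 1610 to 2332 lower. Against a minimum change of 2-fold, 587 genes were called higher and 636 lower. With a minimum of 1 CPM in place of 10 CPM, the size rule gave 616 genes higher and 762 lower. It gave 330 to 387 higher and 401 to 422 lower with either clone left out. No paired analysis was possible because only the iPSC clones carry a number in the labels.

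Under the alternatives with a test, no named gene changed direction where the main or the alternative fit called it. Changes of direction in genes called by neither were not counted. DESeq2 dropped the calls of 14 of 276 named genes (FGF8, HK2, ISG15, ITGA6, MXD1, NEUROD1, ORC6, PEG3, PORCN, SOX1, SOX10, TEK, TET2 and TIE1) and added 6, among them FASN, IFIH1, LAMA1, LIN28A and PAX6. LIN28A was called under 4 alternatives, with an edgeR adjusted p of 0.0506 as reported. Of other genes in the text, CENPF, KLF2, MYH3 and TAGLN were not called by DESeq2. The minimum change of 2-fold dropped 79 calls of the 276 genes, since moderate changes cannot pass it, and moved 52 of 86 list counts by more than 1.5 times. Under it the rising ATF4 genes went from 35 to 15, the rising epithelial genes from 18 to 8, the falling WNT genes from 30 to 11, and the rising replication and mitosis genes from 9 each to 0. A filter of 1 CPM in 2 libraries lowered the falling neuronal genes from 33 to 20 and the study's neural genes from 8 to 3, because a gene found in the lone iNSLC library is then not tested. DESeq2 lowered the falling naive genes from 4 to 2 and the rising crest genes from 4 to 2. Leaving out a clone left no residual degree of freedom, so those values carry no test. The depth limits calls among genes of a few counts, and the lone iNSLC library limits every comparison.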

Other observations

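Several genes outside the lists also rose, and those given here were chosen after their values were seen. APOA1, the main apolipoprotein of high-density lipoprotein, rose 22.3-fold, from 17.3 to 352 and 419.8 CPM, and the nuclear receptor HNF4A from 0.977 to 24.6 and 32.3 CPM. VIL1 (villin), of brush borders, rose from 0.698 to 21.2 and 25.7 CPM, and the endoderm peptide APELA from 1.05 to 15 and 22.7 CPM. CYP1A1, a target of the aryl hydrocarbon receptor, rose 27.5-fold, from 24 to 635 and 686 CPM, and the chemokine CXCL8 from 1.12 to 29.4 and 42.1 CPM.

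Among the falls outside the lists, also chosen after their values were seen, were IGFBPL1 (151 to 3.88 and 1.05 CPM), the alarmin IL33 (29.1 to 0.127 and 0.197 CPM) and the basement membrane protein NPNT (246 to 6.29 and 5.59 CPM). In the fibroblasts they stood at 0.0432, 291 and 0.648 CPM.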
